A study of Mus musculus with 8 samples.

Results

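The genes described here belong to cholesterol synthesis and its control by sterols. They are the enzyme genes Hmgcs1, Idi1, Fdps, Fdft1, Sqle and Cyp51, the sterol sensor partner Insig1 and the transcription factor gene Srebf2, 8 genes chosen by name. Of these, 7 were found by symbol among the 11704 listed protein-coding genes, and all 7 passed the filter on low values that left 10025 genes to test. Sqle, the gene of squalene epoxidase, was not analysed here. Uptake of cholesterol is not represented among the 7 and is read below from a separate list of receptor and trafficking genes.

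RNA was sequenced from 8 heart samples of Mus musculus. As newborns the mice had been injected under the skin with an adeno-associated virus of serotype 9 (AAV9), a vector that reaches heart muscle. In 4 samples the virus carried mouse Fgf17, the gene of a secreted growth factor of the FGF family (the AAV-FGF17 group), and in 4 it was the control vector. Hearts were taken at 8 to 10 weeks of age. Strain, sex, vector dose and the promoter of the vector are not given in the sources used here. The value columns carry the word sham, the series title names sham operation and infarction and ends in the word normal, and the sample labels name no surgery. Levels are FPKM, fragments scaled to transcript length and to the fragments mapped in the library, and sequencing depth is unknown.

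Cells make cholesterol from acetyl-CoA through mevalonate, isoprenoids, squalene and lanosterol. Most genes of this chain are switched on by SREBP2, the product of Srebf2, which sits in the membrane of the endoplasmic reticulum. When sterols are low, the escort protein Scap carries SREBP2 to the Golgi, where proteases release its active part, and when sterols are high, Insig proteins hold Scap and SREBP2 back. In the nucleus SREBP2 binds sterol regulatory elements, usually beside sites for the factors NF-Y and Sp1. Insig1 and Srebf2 are themselves targets of SREBP2, so the genes described here are known to move together when sterol supply changes.

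The DNA in front of 3 of the genes is shown, Hmgcs1 and Srebf2 for a sterol element core and Insig1 for an E-box. RefSeq holds a promoter window for 5 of the 7 genes, on GRCm38.p6, and the 250 bases before the RefSeq start were searched on both strands for 4 short motifs. These were the core of the sterol regulatory element (TCACNCCA), the CCAAT box bound by NF-Y (CCAAT), the GC box bound by Sp1 (GGGCGG) and the E-box CACGTG. In the sequences, capitals mark matches to any of the 4, on either strand, so that ATTGG is a CCAAT box and CCGCCC a GC box read from the opposite strand. Each runs 5′ to 3′ along the gene's plus strand and stops where the first annotated GENCODE transcript begins, if that comes before the RefSeq start.
Hmgcs1, chr13:119690101-119690350: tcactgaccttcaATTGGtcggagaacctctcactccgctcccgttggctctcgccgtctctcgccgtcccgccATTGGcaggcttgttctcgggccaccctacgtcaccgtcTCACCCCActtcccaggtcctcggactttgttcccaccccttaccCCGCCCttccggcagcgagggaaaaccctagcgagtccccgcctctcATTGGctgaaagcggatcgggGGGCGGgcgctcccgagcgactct
Srebf2, chr15:82147019-82147180: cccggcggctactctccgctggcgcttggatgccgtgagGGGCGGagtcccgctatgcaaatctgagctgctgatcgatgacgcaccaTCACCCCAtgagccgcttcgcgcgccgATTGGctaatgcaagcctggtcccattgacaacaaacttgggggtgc
Insig1, chr5:28071162-28071362: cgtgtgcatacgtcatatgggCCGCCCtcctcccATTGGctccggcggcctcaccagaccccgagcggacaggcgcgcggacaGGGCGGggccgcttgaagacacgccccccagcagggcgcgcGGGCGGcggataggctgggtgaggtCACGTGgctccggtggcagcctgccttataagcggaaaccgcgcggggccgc

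The sterol element core lay in the windows of Hmgcs1 and Srebf2, 2 of 5, each time as TCACCCCA on the gene strand. It began 137 bases before the RefSeq start of Hmgcs1 and 162 bases before that of Srebf2. Among all 32851 RefSeq windows of the same length, 3.67% held it. A CCAAT box was found in 5 of 5 windows, against 33.8% of all windows, and a GC box in 5 of 5, against 32.7%. The E-box was found in Insig1 alone of the 5, and in 6.02% of all windows. The windows of Idi1 and Cyp51 held CCAAT and GC boxes and no match to the other pair of motifs. In Idi1 every match, and in Cyp51 the CCAAT box, lay past the start of the first annotated GENCODE transcript. The counts of 5 of 5 include these matches. A match describes letters in a window and does not show binding.

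Before the results, the libraries need a word. Fgf17 itself ran from 69.0 to 173 FPKM in the AAV-FGF17 hearts and from 0.560 to 9.86 FPKM in the control hearts, with no overlap of the groups. Among the controls it was 9.59 and 9.86 FPKM in libraries 1 and 4, and 1.43 and 0.560 FPKM in libraries 2 and 3. Control libraries 2 and 3 stood apart from the other 6. Mitochondrially encoded genes made up 44.5% and 30.9% of their FPKM sum, against 62.8% to 66.9% elsewhere, and on the first principal component they scored 22.0 and 44.6 against -19.4 to -7.55. Their median log2 value over the tested genes was 2.60 and 2.69, against 2.31 to 2.49 elsewhere, and the median tested gene had a log2 change of -0.12 between the groups. Changes are therefore given relative to that median gene, on the log2(FPKM + 1) scale, which understates the change of low genes, and those of the 7 genes and of the lists are also given without control libraries 2 and 3. Heart muscle markers were present throughout, with a sum over 8 cardiomyocyte genes of 11578 to 12552 FPKM in AAV-FGF17 hearts and 11492 to 24036 FPKM in controls.

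Cholesterol genes stood at low to moderate levels in these hearts, and none of the 7 passed the test between the groups. With limma, fitted to all tested genes, 0 of the 7 passed an adjusted p of 0.05, and no other gene did, 0% of 10025, the smallest adjusted p being 0.248. Fgf17 itself was among the genes that did not pass, although its FPKM did not overlap between the groups. Missing the threshold in this fit therefore does not show that a gene was unchanged. At an unadjusted p under 0.05 there was 1 of the 7, Srebf2, against 936 of all tested genes (9.34%), of which 136 lay higher and 800 lower in AAV-FGF17 hearts. Relative to the median gene 4 of the 7 lay higher and 3 lower, with a median log2 change of 0.02, beside 5012 higher and 5012 lower among all tested genes. The log2 changes ran from -0.31 in Srebf2 to 0.35 in Fdft1. Without control libraries 2 and 3 the median was 0.04, with 5 higher and 2 lower.

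**Figure D1:**
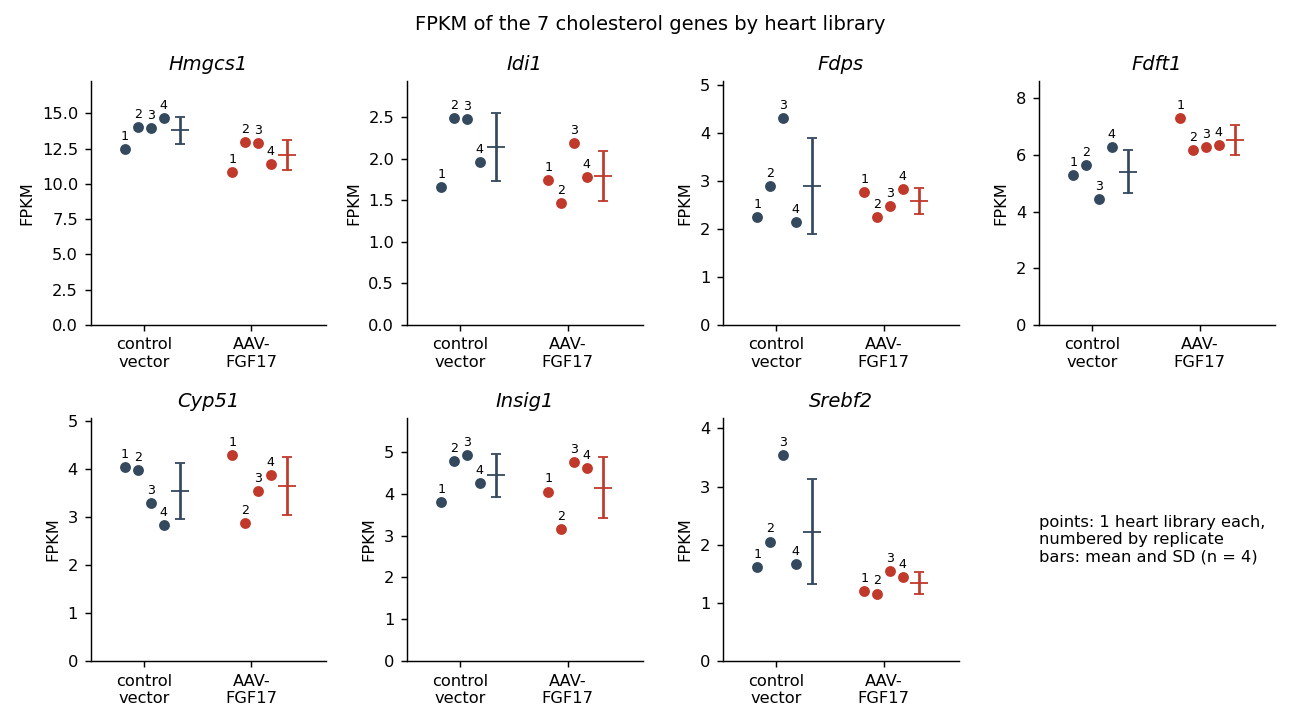
FPKM of the 7 genes in each heart library. Each point is 1 library with its replicate number, in the control vector group (dark) or the AAV-FGF17 group (red), and the bars give the mean and SD of 4. Srebf2 is the one panel in which the groups do not overlap, with AAV-FGF17 libraries at 1.17 to 1.55 FPKM and controls at 1.62 to 3.54 FPKM.

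Hmgcs1 (ENSMUSG00000093930.2, GRCm38 chromosome 13, 119690379 to 119708260, plus strand) encodes the cytosolic HMG-CoA synthase that commits acetyl units to the mevalonate route. It measured 10.9, 12.9, 12.9 and 11.4 FPKM in AAV-FGF17 libraries 1 to 4, and 12.5, 14.0, 14.0 and 14.7 FPKM in control libraries 1 to 4. The groups overlapped through control library 1, which lay below AAV-FGF17 libraries 2 and 3. The means were 12.0 ± 1.06 FPKM (SD, n = 4) and 13.8 ± 0.927 FPKM. On the log2 scale the fitted difference was -0.18 ± 0.11 (SE), with a 95% interval from -0.42 to 0.05 and a limma adjusted p of 0.497. This is -0.07 relative to the median gene and -0.14 without control libraries 2 and 3. A non-coding antisense gene, Gm48342, shares exonic bases with it, and without stated strand information reads of the pair cannot be told apart.

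Idi1 (ENSMUSG00000058258.14, chromosome 13, 8885501 to 8892451, plus strand) encodes the isomerase that makes dimethylallyl diphosphate, the starter unit of isoprenoids. AAV-FGF17 libraries 1 to 4 held 1.75, 1.46, 2.19 and 1.78 FPKM, and control libraries 1 to 4 held 1.65, 2.49, 2.47 and 1.96 FPKM. The control libraries with the 2 highest values were the ones that stood apart in mitochondrial share. Idi1 had a fitted log2 change of -0.17, with a 95% interval from -0.46 to 0.13 (limma adjusted p = 0.559). Relative to the median gene this was -0.05, and 0.01 without those libraries. An unclassified gene model on the opposite strand, Gm48574, shares exonic bases with Idi1.

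Fdps (ENSMUSG00000059743.12, chromosome 3, 89093588 to 89101959, minus strand) encodes farnesyl diphosphate synthase, at the branch between sterols and other isoprenoids. Its values were 2.75, 2.24, 2.47 and 2.82 FPKM in AAV-FGF17 libraries 1 to 4, and 2.24, 2.88, 4.30 and 2.13 FPKM in control libraries 1 to 4. Control library 3 lay above every other library, and control libraries 1 and 4 were, with AAV-FGF17 library 2, the lowest. Fdps had a fitted log2 change of -0.09, with a 95% interval from -0.47 to 0.29 (limma adjusted p = 0.798). Relative to the median gene this was 0.02, and 0.18 without control libraries 2 and 3. An overlapping gene model on the same strand, Gm43738, shares 1124 exonic bases with Fdps, so the division of reads between them is uncertain.

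Fdft1 (ENSMUSG00000021273.10, chromosome 14, 63145150 to 63179578, minus strand) encodes squalene synthase, the first enzyme that serves sterols alone. It measured 7.30, 6.18, 6.30 and 6.35 FPKM in AAV-FGF17 libraries 1 to 4, and 5.28, 5.64, 4.45 and 6.29 FPKM in control libraries 1 to 4. A single control, library 4, reached into the AAV-FGF17 range, and control library 3 was the lowest of all. The means were 6.53 ± 0.520 FPKM (SD, n = 4) against 5.42 ± 0.766 FPKM. The fitted difference was 0.24 ± 0.12 on the log2 scale (SE), its 95% interval was -0.03 to 0.51, and limma gave an adjusted p of 0.495. Relative to the median gene it was 0.35, higher than in 94.4% of tested genes, and it was 0.17 without control libraries 2 and 3. On the opposite strand Fdft1 shares 774 exonic bases with Ctsb, the gene of the protease cathepsin B. Ctsb stood far higher, at 37.8 to 47.3 FPKM in AAV-FGF17 hearts and 42.7 to 66.3 FPKM in controls, with control libraries 2 and 3 highest. Without stated strand information the part of Ctsb reads in the Fdft1 value cannot be told apart.

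Cyp51 (ENSMUSG00000001467.5, chromosome 5, 4081145 to 4104746, minus strand) encodes the lanosterol demethylase. It held 4.30, 2.88, 3.54 and 3.87 FPKM in AAV-FGF17 libraries 1 to 4, and 4.04, 3.99, 3.29 and 2.84 FPKM in control libraries 1 to 4. The ranges of the groups nearly coincided. Cyp51 had a fitted log2 change of 0.03, with a 95% interval from -0.28 to 0.35 (limma adjusted p = 0.914), or 0.15 relative to the median gene. This was 0.09 without control libraries 2 and 3, and ran from 0.09 without control library 3 to 0.24 without control library 1 when single libraries were left out. It shares 166 exonic bases with Akap9 on the opposite strand, which stood at 5.69 to 6.66 FPKM over the 8 libraries.

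Insig1 (ENSMUSG00000045294.11, chromosome 5, 28071363 to 28078662, plus strand) encodes the membrane protein that retains the Scap and SREBP2 complex, and it is widely used as a readout of SREBP activity. AAV-FGF17 libraries 1 to 4 measured 4.05, 3.15, 4.74 and 4.61 FPKM, and control libraries 1 to 4 measured 3.80, 4.78, 4.92 and 4.25 FPKM. The lowest value was that of AAV-FGF17 library 2 and the highest that of control library 3, and the groups overlapped over most of their range. Insig1 had a fitted log2 change of -0.09, with a 95% interval from -0.39 to 0.22 (limma adjusted p = 0.761), or 0.03 relative to the median gene and 0.04 without control libraries 2 and 3.

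Srebf2 (ENSMUSG00000022463.7, chromosome 15, 82147181 to 82205379, plus strand) was the lowest expressed of the 7. It stood at 1.20, 1.17, 1.55 and 1.46 FPKM in AAV-FGF17 libraries 1 to 4, and at 1.62, 2.06, 3.54 and 1.67 FPKM in control libraries 1 to 4. All 4 AAV-FGF17 libraries lay below all 4 controls, though the gap between the groups was small and control library 3 lay far above the rest. The means were 1.34 ± 0.189 FPKM (SD, n = 4) against 2.22 ± 0.901 FPKM, and control libraries 1 and 4 alone averaged 1.65 FPKM. The fitted difference was -0.43 ± 0.18 on the log2 scale (SE), with a 95% interval from -0.82 to -0.03, an unadjusted limma p of 0.0366 and an adjusted p of 0.495. Relative to the median gene it was -0.31, with 8.19% of tested genes lower still, and it was -0.17 without control library 3 and -0.16 without control libraries 2 and 3. Of the 7 genes it alone separated the groups. As FPKM, 4.64% of all tested genes lay lower in all 4 AAV-FGF17 libraries than in all 4 controls and 0.998% lay higher. On values relative to each library's median gene Srebf2 separated the groups too, where these shares were 2.11% lower and 3.18% higher.

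The order of levels over the 8 libraries, per transcript length, was Hmgcs1, Fdft1, Insig1, Cyp51, Fdps, Idi1 and Srebf2. Hmgcs1 averaged 12.9 ± 1.32 FPKM (SD, n = 8) and lay above Fdft1, at 5.97 ± 0.850 FPKM, in 8 of 8 libraries without overlap of their ranges. The ranges of all other neighbours in this order overlapped. Within a library Fdft1 exceeded Insig1 (4.29 FPKM on average) in 7 of 8, Insig1 exceeded Cyp51 (3.59 FPKM) in 6 of 8, and Cyp51 exceeded Fdps (2.73 FPKM) in 7 of 8. Fdps lay above Idi1 (1.97 FPKM) in 8 of 8 libraries and Idi1 above Srebf2 (1.78 FPKM) in 7 of 8, the exception being control library 3. Relative to its mean, Hmgcs1 varied least over the libraries, with a coefficient of variation of 10.2%, and Srebf2 most, at 42.8%.

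**Figure D2:**
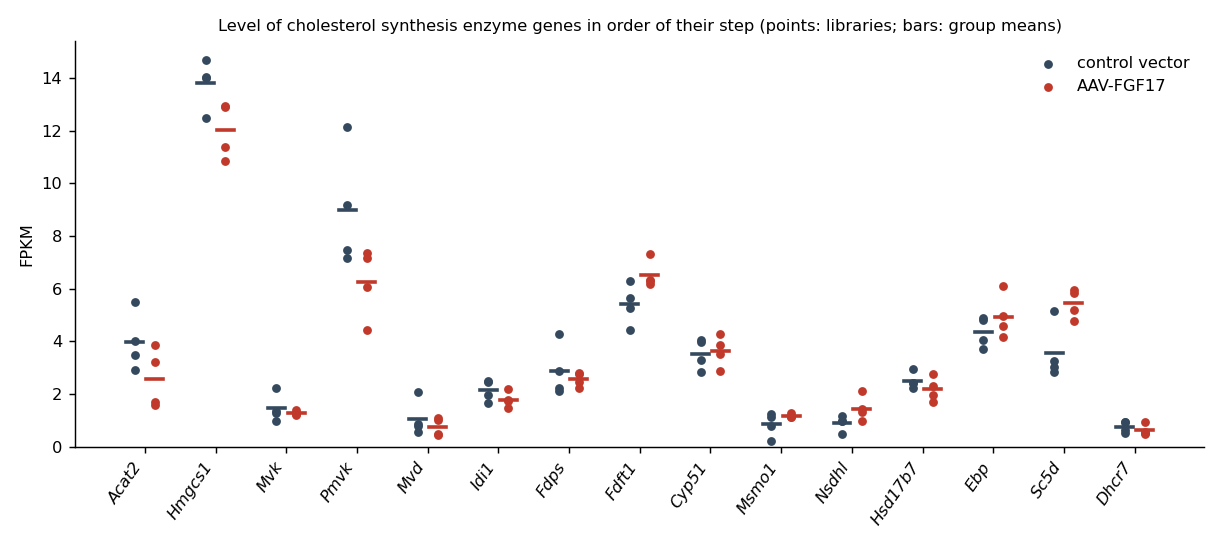
FPKM of 15 cholesterol synthesis enzyme genes, placed in the order of their steps from left to right. Points are libraries of the control vector group (dark) and the AAV-FGF17 group (red), and bars are group means. Hmgcs1 and Pmvk stand highest, and for Sc5d and Fdft1 a single control point reaches into the AAV-FGF17 range.

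The other enzymes of the pathway were read from a list of 15, of which 9 were tested. None passed limma's threshold in either direction. Of the 9, 6 lay higher than the median gene and 3 lower, with a median of 0.07, and of 0.02 without control libraries 2 and 3. Sc5d, a desaturase near the end of the chain, had the smallest p of the list. It measured 5.84, 4.79, 5.93 and 5.19 FPKM in AAV-FGF17 libraries 1 to 4, and 2.83, 3.03, 3.25 and 5.15 FPKM in control libraries 1 to 4. Control library 4 alone lay among the AAV-FGF17 values, and relative to the median gene the groups did not overlap. The log2 change of Sc5d was 0.64 relative to the median gene and 0.43 without control libraries 2 and 3 (limma adjusted p = 0.495 with all libraries). Pmvk, which phosphorylates mevalonate phosphate, stood at 6.27 ± 1.34 FPKM (SD, n = 4) against 8.98 ± 2.28 FPKM. Nsdhl, which helps remove the methyl groups of lanosterol, stood at 1.46 ± 0.477 FPKM against 0.909 ± 0.289 FPKM. The low genes Mvd, which makes isopentenyl diphosphate, and Dhcr7, of the last steps, averaged 0.916 and 0.696 FPKM over the 8 libraries and were not tested.

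Genes that process or hold back the SREBP proteins gave 11 tested members of 11, of which none passed. Of these, 6 lay higher than the median gene and 5 lower, with a median of 0.01, and 7 and 4 without control libraries 2 and 3, with a median of 0.02. Srebf1, whose product drives fatty acid synthesis more than cholesterol synthesis, resembled Srebf2. It measured 1.30, 1.01, 1.79 and 1.22 FPKM in AAV-FGF17 libraries 1 to 4, and 1.62, 2.13, 3.80 and 1.72 FPKM in control libraries 1 to 4. Control library 3 was highest for this gene too, and AAV-FGF17 library 3 lay above control libraries 1 and 4. Its log2 change was -0.36 relative to the median gene and -0.19 without control libraries 2 and 3 (limma adjusted p = 0.495 with all libraries). Scap, the escort, stood at 1.02 to 1.28 FPKM in AAV-FGF17 hearts and at 1.12 to 2.07 FPKM in controls, and Insig2, the second Insig gene, 8.66 ± 1.11 FPKM against 9.52 ± 1.97 FPKM. Mbtps1, which makes the first cut in SREBP, measured 4.34 ± 0.735 FPKM against 5.31 ± 0.474 FPKM. Faf2, which takes part in the breakdown of Insig1, stood at 2.69 to 3.20 FPKM in AAV-FGF17 hearts and at 3.36 to 4.01 FPKM in controls. Its groups overlapped once values were taken relative to the median gene.

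Among 14 genes of cholesterol uptake and trafficking, 10 were tested and none passed, with 4 above the median gene, 6 below and a median of -0.03. Without control libraries 2 and 3 these counts were 7 above and 3 below, with a median of 0.04. Vldlr, a receptor for triglyceride-rich lipoproteins, was the most abundant of the list, at 23.3 to 29.4 FPKM in AAV-FGF17 hearts and 24.4 to 31.6 FPKM in controls (limma adjusted p = 0.858). Lrp1, a large endocytic receptor that binds apolipoprotein E, measured 5.39, 3.87, 6.98 and 3.81 FPKM in AAV-FGF17 libraries 1 to 4, and 5.87, 8.42, 11.1 and 6.43 FPKM in control libraries 1 to 4. AAV-FGF17 library 3 lay above control libraries 1 and 4, and the log2 change of Lrp1 was -0.45 relative to the median gene and -0.26 without control libraries 2 and 3 (limma adjusted p = 0.495 with all libraries). Npc2 and Lipa, which free cholesterol from lysosomes, stood at 6.81 ± 1.01 FPKM against 8.53 ± 2.33 FPKM and at 12.0 ± 1.05 FPKM against 10.4 ± 1.93 FPKM.

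Of 10 genes of cholesterol efflux and of the LXR receptors that sense oxidised sterols, 5 were tested, with 1 above the median gene, 4 below and a median of -0.04. Without control libraries 2 and 3 these counts turned to 4 above and 1 below, with a median of 0.13. Apoe, the apolipoprotein E gene, stood at 92.8 ± 35.9 FPKM against 128 ± 44.9 FPKM, Abca1, the cholesterol exporter, at 3.20 ± 0.457 FPKM against 3.89 ± 0.822 FPKM, and Cyp27a1, the sterol 27-hydroxylase, at 6.56 ± 0.954 FPKM against 7.65 ± 2.68 FPKM. The branch from farnesyl diphosphate to other isoprenoids gave 5 tested genes, with 4 above the median gene, 1 below and a median of 0.12. Without control libraries 2 and 3 there were 3 above and 2 below, with a median of 0.01. Ggps1, the geranylgeranyl diphosphate synthase gene, measured 7.71, 6.72, 7.20 and 7.75 FPKM in AAV-FGF17 libraries 1 to 4, and 7.03, 3.46, 4.31 and 6.88 FPKM in control libraries 1 to 4. Its low values were those of control libraries 2 and 3, and its log2 change relative to the median gene was 0.54 with them and 0.09 without them. Pdss2, of ubiquinone side chain synthesis, measured 3.08 ± 0.098 FPKM against 3.29 ± 0.242 FPKM, and Dhdds, of dolichol synthesis, 4.31 ± 1.24 FPKM against 4.80 ± 0.484 FPKM. Across these 5 lists together, 40 genes were tested, 21 lay above the median gene, 19 below and none passed limma, with a median change of 0.01. With control libraries 2 and 3 left out, 27 lay above and 13 below, with a median of 0.02.

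**Figure D3:**
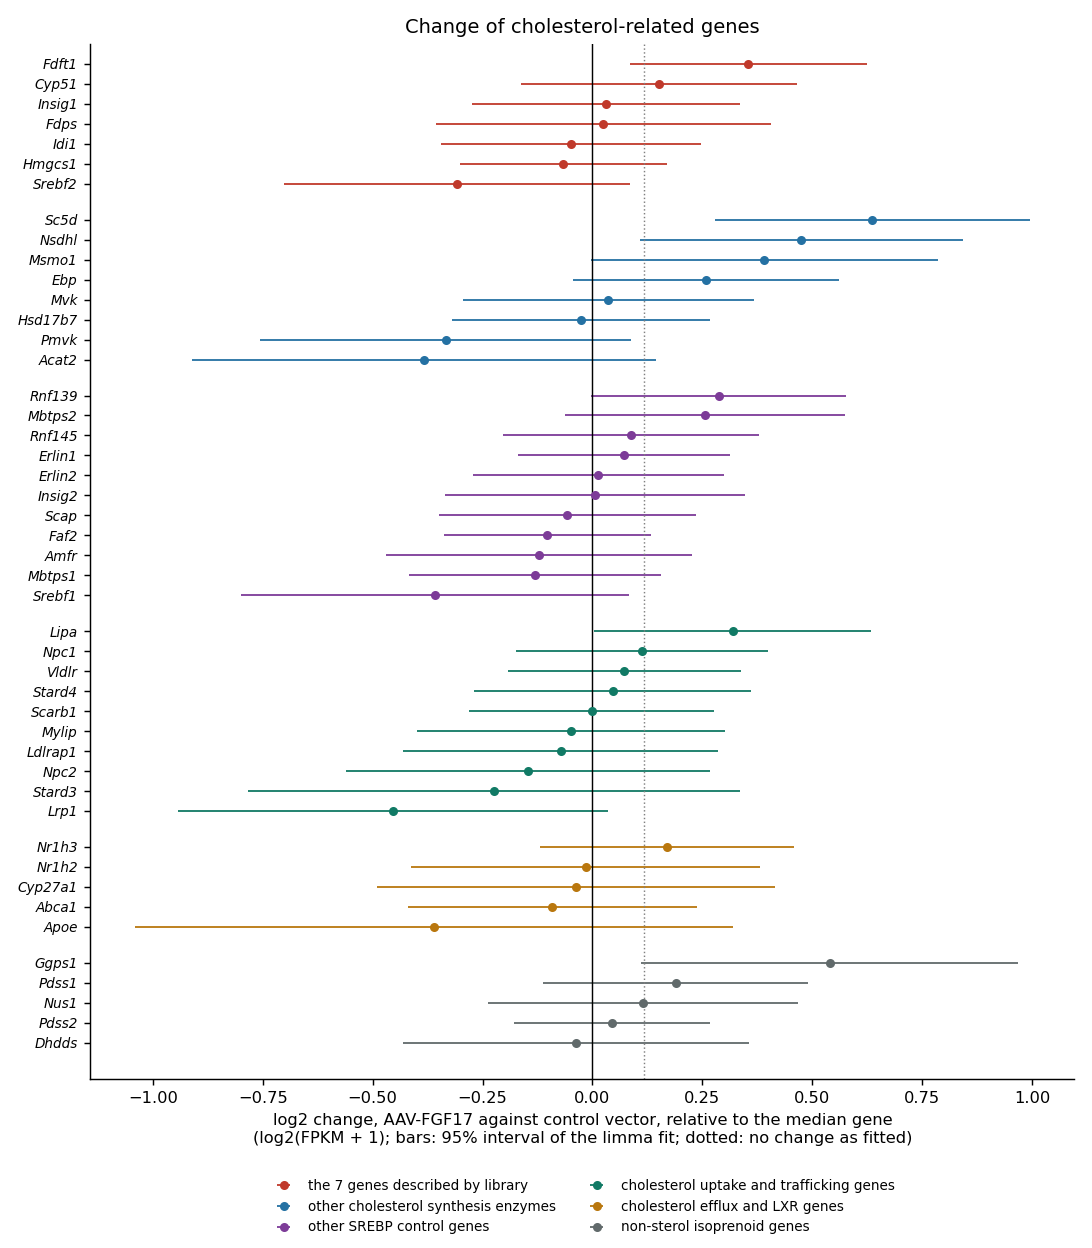
Log2 change between AAV-FGF17 and control vector hearts, relative to the median of all tested genes, for the 7 genes and 39 of the 40 tested genes of the other cholesterol-related lists. Points are fitted changes on the log2(FPKM + 1) scale with 4 libraries a group, bars are 95% intervals of the limma fit, and the dotted line marks no change as fitted. The 7 genes run from -0.31 in Srebf2 to 0.35 in Fdft1, and the points of each list lie on both sides of 0.

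Genes of fatty acid synthesis, which answer mainly to SREBP1, are given side by side with these values. Of 10 tested, 2 lay above the median gene and 8 below, with a median of -0.25, and none passed limma. The median was -0.08, with 1 above and 9 below, once control libraries 2 and 3 were left out. Those of smallest p were Scd1, the stearoyl-CoA desaturase, at 13.0 ± 7.05 FPKM against 27.5 ± 5.79 FPKM, Thrsp at 8.41 ± 1.63 FPKM against 14.9 ± 4.66 FPKM, and Fasn, the fatty acid synthase, at 1.58 ± 0.738 FPKM against 3.64 ± 1.62 FPKM. Whether the cholesterol genes differ from them was not tested. White adipocyte markers, 8 genes in all, had a summed level of 51.5 to 209 FPKM in AAV-FGF17 hearts and 147 to 354 FPKM in controls, highest in control library 3. The groups overlapped, since AAV-FGF17 library 3, at 209 FPKM, lay above control libraries 1, 2 and 4, at 177, 147 and 180 FPKM. All 7 tested markers of this list lay below the median gene. None of the 8 was at 0 in any library, and the most abundant were Cfd, at 22.4 to 95.7 FPKM against 73.8 to 212 FPKM, and Car3, at 18.5 to 75.2 FPKM against 40.6 to 87.0 FPKM. Adipocytes express the SREBP genes and lipid synthesis enzymes too, and the part of these cells in the values of Srebf2 and Srebf1 was not tested. The sum of 6 endothelial markers, led by Cdh5 and Pecam1, was lower in all AAV-FGF17 hearts than in all controls, at 97.3 to 127.6 FPKM against 128.4 to 169 FPKM. The groups nearly met, and the sum was not taken relative to the median gene. As FPKM, 4.64% of all tested genes lay lower in all 4 AAV-FGF17 libraries than in all 4 controls. Of the 6, 2 lay above the median gene and 4 below. Brown adipocyte markers, 4 of 6, summed to 258 to 326 FPKM against 283 to 419 FPKM. Most of this sum was Cox8b, at 226 to 282 FPKM against 223 to 336 FPKM, so the sum follows mainly that gene. All 4 lay below the median gene, Cox8b by a log2 change of -0.03 and Cidea by -0.56, and the groups did not overlap in Cidea, at 27.6 to 38.9 FPKM against 41.1 to 67.6 FPKM. Of all tested genes, 4.64% lay lower in this way as FPKM. Whether the levels of these markers came from brown adipocytes or from other cells of the heart was not tested. Sums of 6 smooth muscle markers, led by Acta2 and Tagln, were 97.8 to 173 FPKM against 172 to 260 FPKM, and those of 6 atrial markers, led by Nppa and Myl7, 563 to 1932 FPKM against 1393 to 3111 FPKM. Sums of 8 cardiomyocyte markers, led by Mb and Myh6, were 11578 to 12552 FPKM against 11492 to 24036 FPKM. They were highest in control libraries 2 and 3, at 19196 and 24036 FPKM, and 1 of the 8 lay above the median gene and 7 below. Other cell type lists lay the other way. Above the median gene lay 4 of 6 fibroblast, 4 of 6 macrophage and 6 of 6 erythroid markers, with medians of 0.30, 0.12 and 0.33. The part of any of these cell types in the level of Srebf2 was not tested either. In bulk heart RNA, fewer cells of a type and less RNA per cell cannot be told apart. Schwann cells, which make cholesterol for myelin, left little signal, with 4 of 6 markers summing to 4.39 to 7.27 FPKM in AAV-FGF17 hearts and 4.46 to 7.45 FPKM in controls.

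Co-regulation was read from the correlation of each pair of the 7 genes over the libraries, on log2 values relative to the library's median gene. The genes did not share a common profile. Over the 21 pairs the median Pearson r was -0.039 with 8 libraries, with 10 pairs positive and 11 negative, and r ran from -0.955 to 0.597. All 50245300 pairs of tested genes had a median r of 0.00385, and 52.8% of them reached or exceeded the median of the 21. Without control libraries 2 and 3 the median over the 21 pairs was -0.022, beside 0.014 over all pairs, and 8 of the 21 pairs changed sign. The mean of the 7 genes, each centred on its own mean, was almost flat, from -0.04 in control library 1 to 0.05 in AAV-FGF17 library 4, while single genes departed from their means by -0.55 to 0.54.

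**Figure D4:**
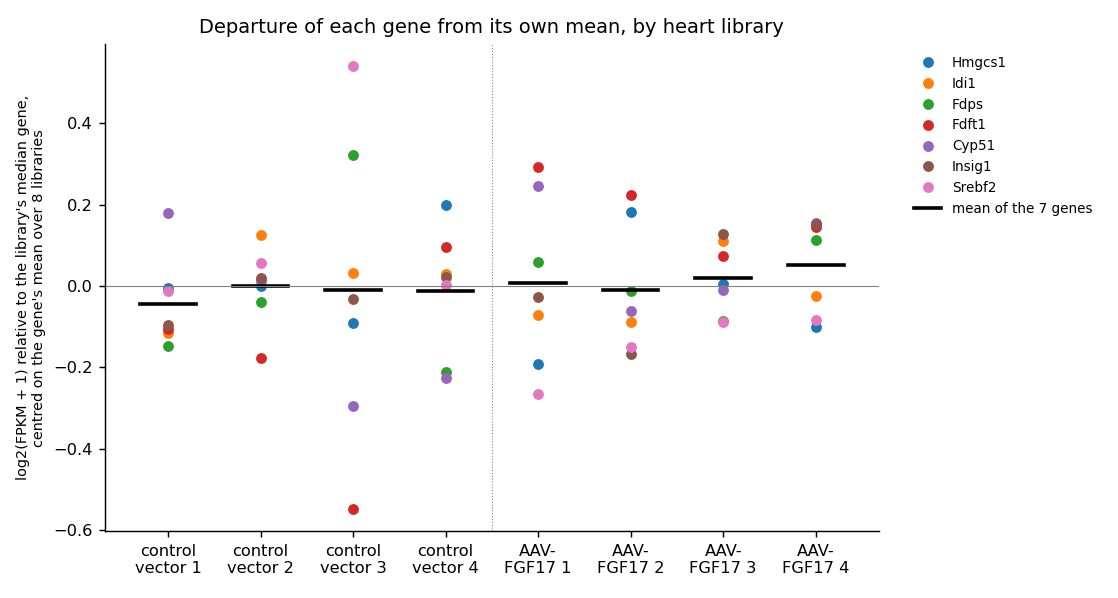
Departure of each of the 7 genes from its own mean in each heart library, as log2(FPKM + 1) relative to the library's median gene. Coloured points are genes and black bars the mean of the 7 in that library, which stays between -0.04 and 0.05. In control library 3 Srebf2 lies at 0.54 and Fdps at 0.32 while Fdft1 lies at -0.55 and Cyp51 at -0.29.

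The strongest relation of the 21 was an inverse one, between Fdft1 and Srebf2. Over 8 libraries Pearson's r was -0.955 (two-sided exact permutation p = 0.000248, adjusted over the 21 pairs 0.00521) and Spearman's rho was -0.881 (exact permutation p = 0.00724, adjusted 0.152). It was the 1 pair whose r passed 0.05 after adjustment. Control libraries 2 and 3 were also the libraries farthest from the median of Fdft1, and without them r was -0.829 (exact permutation p = 0.0417, adjusted 0.438) and rho -0.714 (exact permutation p = 0.136), so the adjusted call was lost without them, in a set with 2 fewer libraries. Within the groups, as deviations from the group means, r was -0.922. On log2 values as deposited, with no library median subtracted, r was -0.867 over 8 libraries and -0.557 over 6. Fdft1 is also the gene whose exons overlap those of Ctsb, as given above.

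Srebf2 was set against the genes it is known to drive. Its r with Fdps was 0.558 over 8 libraries (exact permutation p = 0.160, adjusted 0.566; rho = -0.024, exact permutation p = 0.977), but -0.700 without control libraries 2 and 3 (exact permutation p = 0.111). Control library 3 was the highest in both genes. Its r with Cyp51 was -0.709 (exact permutation p = 0.0276, adjusted 0.289; rho = -0.524, exact permutation p = 0.197) and -0.487 without control libraries 2 and 3 (exact permutation p = 0.342). It was -0.449 without control library 3 alone and -0.043 without the libraries farthest from the median of Cyp51, control library 3 and AAV-FGF17 library 1. With Hmgcs1, Idi1 and Insig1 its r was -0.072, 0.331 and -0.039 over 8 libraries (exact permutation p = 0.861, 0.472 and 0.922) and its rho 0.143, 0.500 and 0.048 (p = 0.752, 0.216 and 0.935). Over 6 libraries r was 0.538, 0.236 and 0.172. None of these passed after adjustment over the 21 pairs.

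Idi1 and Insig1 formed the highest positive pair. Their r was 0.597 over 8 libraries (exact permutation p = 0.121, adjusted 0.566; rho = 0.548, exact permutation p = 0.171) and 0.737 without control libraries 2 and 3 (exact permutation p = 0.103, adjusted 0.574; rho = 0.771). Without the 2 libraries farthest from the median of Idi1 it was 0.610. Both genes were high in AAV-FGF17 library 3 and lower in AAV-FGF17 library 2 and control library 1. The sign held in these 3 sets of libraries, and the relation missed the threshold over 8 and over 6. Hmgcs1 and Cyp51 ran opposite to each other, with r = -0.514 over 8 libraries (exact permutation p = 0.195, adjusted 0.586; rho = -0.595, exact permutation p = 0.132) and r = -0.905 over the 6 (exact permutation p = 0.00972, adjusted 0.204; rho = -0.943). Without the libraries farthest from the median of Hmgcs1, which were AAV-FGF17 library 1 and control library 4, r was -0.012.

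**Figure D5:**
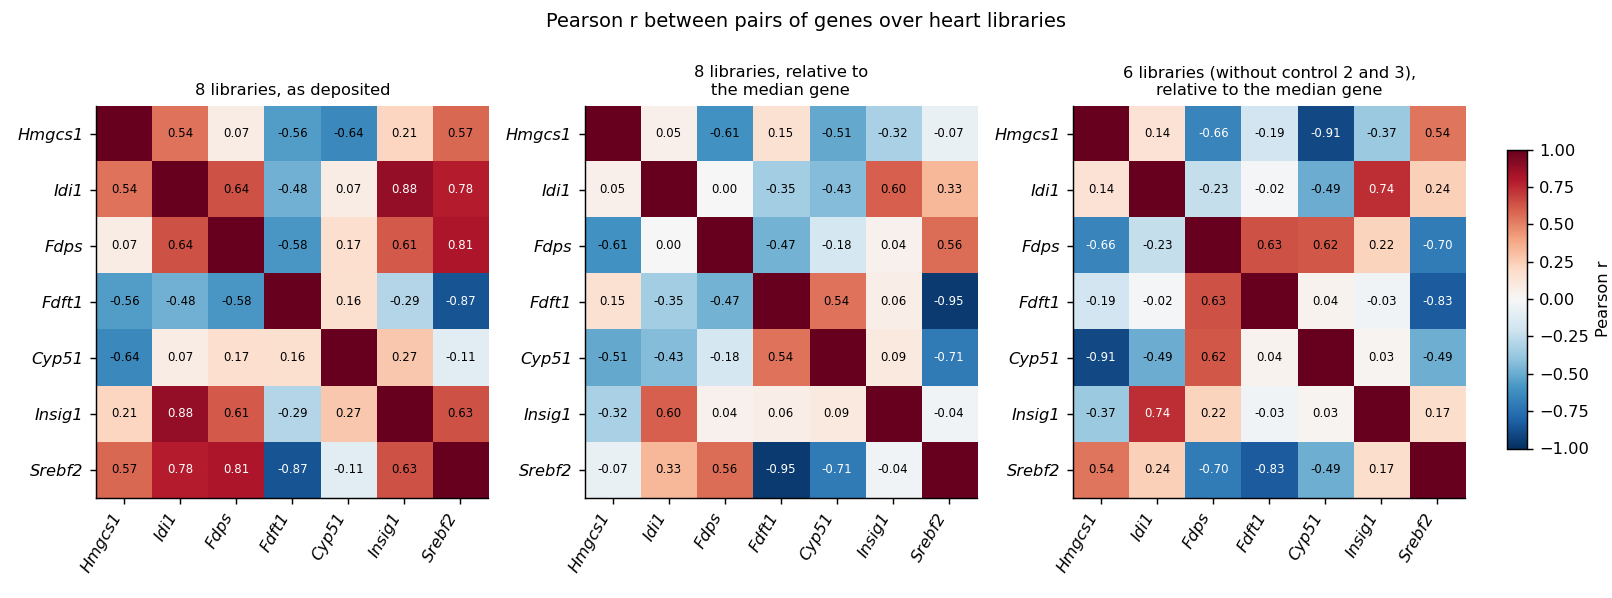
Pearson r between pairs of the 7 genes, on log2(FPKM + 1) as deposited over 8 libraries (left), relative to the library's median gene over 8 libraries (middle), and the same over 6 libraries without control libraries 2 and 3 (right). Red is positive and blue negative. The median over 21 pairs is 0.167 in the left panel, -0.039 in the middle and -0.022 on the right, and Fdft1 with Srebf2 is negative in all 3, at -0.867, -0.955 and -0.829.

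On log2 values as deposited the pairs looked more alike. The median r over the 21 pairs was then 0.167, with 14 positive, and Idi1 with Insig1 reached 0.876 and Fdps with Srebf2 0.809. All pairs of tested genes had a median r of 0.171 on that scale, so over 8 libraries the shift of the 21 pairs was also that of all pairs. Without control libraries 2 and 3 the median on that scale was 0.189 over the 21 pairs and 0.102 over all pairs. There, 43.8% of all pairs reached or exceeded the median of the 21.

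Genes whose pattern was most like the mean of the 7 are given as a description, with no function implied, since that mean hardly varied. Over 8 libraries they were Tril (r = 0.958), Mblac2 (0.916), Pdia5 (0.909), Lix1l (0.909) and Chchd5 (0.902). Over the 6 libraries without control libraries 2 and 3 they were Spg21 (0.989), Mtmr6 (0.989), Spc24 (0.985), Gbp3 (0.984) and Haus1 (0.974). No gene is in both sets, and none is an enzyme of cholesterol synthesis.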

How the data were processed

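Per the submitters' processing notes, the tools were StringTie 1.3.3, HISAT2 2.1.0, cutadapt 1.17 and FastQC 0.11.7, with the build GRCm38; order, settings, annotation and strand use are not given in the sources used here. Per the file headers, the authors deposited FPKM, with 1 value for each gene in each library. Columns were matched to samples by group and replicate number, and 0 were left unassigned. In every listed gene the larger group mean was at least 0.501 FPKM. No steps of whole reads stood out among low values, so no count test was run.

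The test took genes whose mean reached 1 FPKM and used limma 3.58.1 in R 4.3.3 on log2(FPKM + 1), with a variance trend, no covariates and Benjamini-Hochberg adjustment over 10025 genes at 0.05. The p-values test the change as fitted against 0. They measure the spread between these samples, which the labels do not expressly call separate animals. Correlations used exact permutation. The fit was tested on simulated data. Control libraries 1 and 4 were the most alike pair (robust SD of their log2 ratio 0.0589 over 413 abundant genes, against 0.0978 for the next pair) and were kept as 2 samples. They are the only controls in every value given without control libraries 2 and 3. The spread between controls there, also for the genes that passed in that setting, is that of this pair alone.

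Alternatives were median-of-ratios scaling, rescaling without mitochondrial genes, a pseudocount of 0.1, no filter or a minimum of 5 FPKM, array weights, no trend, a replicate block, and leaving out libraries. The genes named are the 7, Fgf17, the 3 of smallest p in each list and the 5 most like the mean of the 7 in each set of libraries. Also named are the 2 most abundant markers of cell type lists whose median change lay below the median gene, as Srebf2 did. Other list genes, given for their role, were chosen after their values were seen. The 8 genes, the lists and the tests were chosen with earlier results of these data known. Gene positions and overlaps came from GENCODE M21, promoters from RefSeq. A few list genes count in their lists and are not reported here.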

Additional observations from a re-analysis of the deposited data

Results flagged for a closer look

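In 4 of 72 groups of 4 libraries examined, a single library lay far from the other 3 by Dixon's criterion, which chance meets in about 1 of 20 groups. Fdft1 stood at 7.30 FPKM in AAV-FGF17 library 1. Faf2 stood at 4.01 FPKM in control library 3. Npc2 stood at 5.30 FPKM in AAV-FGF17 library 2, below the others of its group. Scd1 stood at 23.5 FPKM in AAV-FGF17 library 3, the library whose white adipocyte markers summed highest in its group, at 209 FPKM.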

How the results depend on the processing

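None of the 7 genes passed under any of the alternatives, and their median log2 change relative to the median gene ran from -0.021 to 0.039 when 1 library was left out and from 0.018 to 0.147 otherwise. Over all genes 0 passed limma, but 6 passed without control libraries 2 and 3 (Mapt, Fgf17, Tmem168, Lactb and Selenof higher, Amigo1 lower), 5 with array weights (Fgf17, Tmem168, Selenof and Ackr4 higher, Slco2b1 lower), and 0 to 4 when 1 library was left out: 4 without control library 1, 2 without control library 3, and 1 each without control library 2 and AAV-FGF17 library 3. The direction turned in Idi1, at 0.0098 without control libraries 2 and 3 and 0.0069 with array weights. Leaving out 1 library moved Fdps between -0.040 and 0.143 and Insig1 between -0.017 and 0.097. Srebf2 stayed below and Fdft1 above the median gene in every setting that tested them, from -0.483 to -0.158 and from 0.174 to 0.447. The median r over pairs lay between -0.167 and 0.208, the highest with a minimum of 5 FPKM, which kept Hmgcs1 and Fdft1 alone, and was 0.167 with no library median subtracted, a setting chosen after seeing the data. With the replicate number as a block 0 genes passed and the median r was -0.0825; same-numbered libraries did not deviate together (r from -0.109 to 0.022), and no library correlated best with its own number. Depth is unknown, so for the lowest genes, such as Srebf2, counting error cannot be separated from differences between hearts.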
